A study of Homo sapiens with 12 samples.

Results

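Replication-dependent histone genes are described here as they were counted at the 3′ ends of polyadenylated RNA in THP-1 cells, an acute myeloid leukaemia cell line. They were taken as the protein-coding genes of GENCODE v29 whose names begin with HIST1H, HIST2H, HIST3H or HIST4H. This gave 71 of the 57096 genes with a row in the count table. They comprise 6 genes for the linker histone H1, 17 for H2A, 18 for H2B, 15 for H3 and 15 for H4. Of the 71 genes, 64 had at least 1 count, and 20 had enough counts to be tested among 15831 tested genes. The other 44 counted genes are described by their sums. The 7 genes with 0 counts were H1-1, H1-6, H2AC1, H2BC1, H3-4, H3C6 and H4C7, of which H1-6, H2BC1 and H3-4 are known for their expression in testis. A count of 0 over the 12 libraries allows up to 3 counts, or 0.0244 CPM, the read count scaled to library size, for counting error only.

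The cells had been treated for 2 hours with AZ5576, known as an inhibitor of CDK9, with THZ531, known as an inhibitor of CDK12 and CDK13, with YKL5124, known as an inhibitor of CDK7, or with the vehicle DMSO. All 4 groups also received 4-thiouridine at 1 mM in the last 10 minutes, and Drosophila S2 material was added to the RNA as a 5% spike-in. There were 3 libraries per group. The labels give no inhibitor dose, and the 3 DMSO libraries are taken from columns that carry the name UT, which the labels do not explain. Separate cultures are not stated for the libraries of a group, so the p-values speak only of spread among libraries, and that spread may be technical. In RNA from bulk cells, fewer cells that express a histone gene and less RNA per cell cannot be told apart.

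Replication-dependent histone genes supply the histones that package new DNA in S phase. Their mRNAs are the known exception among mRNAs of animal cells in that they normally end in a conserved stem-loop and not in a poly(A) tail. The stem-loop is bound by SLBP, and the U7 small nuclear ribonucleoprotein directs the cut just after it. Polyadenylated histone mRNAs arise when RNA polymerase II passes this site and a poly(A) site further on is used, or by splicing to a distant exon. A library built from poly(A) tails is therefore meant to sample this polyadenylated form, not the bulk of histone mRNA.

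The histone 3′ stem-loop, a stem of 6 base pairs closed by a 4-base loop, was searched for on the transcribed strand within 100 bases after the stop codon. It was found in 32 of the 36 genes with at least 30 annotated bases there (88.9%), and in 1 of 18953 other protein-coding genes (0.00528%), which was H2AX. It began 23 to 68 bases after the stop codon (median 36.5). The 32 stem-loops had 6 forms, of which 1 was found in 17 genes of the H2A, H2B and H3 families. The 8 H4 genes with a stem-loop all had a form with GGCCC at its start, and no gene of another family did. A match is a description of the sequence and says nothing of its use. The sequences below show the main forms in genes whose counts are described later, with the 16 bases of the stem-loop in capitals, and the annotated end of H4C3, with its last 20 bases in capitals. All are from GENCODE v29 transcripts (GRCh38) and are written as DNA in the sense of the transcript. H2BC21 is from chr1:149886183-149886208 on the minus strand, H2BC15 from chr6:27839085-27839110 on the plus strand, H2BC5 from chr6:26158582-26158607 on the plus strand, H4C15 from chr1:149860764-149860789 on the minus strand, and H4C3 from chr6:26104281-26104310 on the plus strand.
H2BC21: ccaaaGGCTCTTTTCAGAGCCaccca
H2BC15: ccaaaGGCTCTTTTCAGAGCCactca
H2BC5: ccaaaGGCTCTTTTAAGAGCCacgca
H4C15: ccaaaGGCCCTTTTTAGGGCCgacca
H4C3 end: tgagaacttcAAAAAACAAAAACAAAAAAA

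A single gene, H4C3, held most of the histone counts. H4C3 (HIST1H4C, ENSG00000197061, chr6:26103876-26104310, plus strand) had 207557 of the 217669 counts of the 71 genes, or 95.4%, and 92.3% to 96.3% in single libraries. Its mean over the 12 libraries was 1707 CPM, which ranked 63 among the 15831 tested genes. Its annotated 3′ UTR is 51 bases long and holds no stem-loop, but sequence past the annotated end was not searched. The stem-loops found in other histone genes began up to 68 bases after the stop codon. The annotated H4C3 transcript ends with 18 A in its last 20 bases. The median over the transcripts of the 71 genes was 6 A, and of the other genes only H2BC8, with 20 A, had 14 or more. H2BC8 was counted at 0.457 CPM. Whether the counts of H4C3 came from RNA with a poly(A) tail or from the A-rich end of its transcript was not tested. None of the 386 stretches of 50 bases in the H4C3 transcript was found in another gene. Together the histone genes made up 0.119% to 0.242% of the human counts of a library.

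The other histone genes lay far below. H2AC19 followed at 14.4 CPM, H2AC14 at 11.1, H2AC18 at 7.94 and H2BC18 at 5.29, where the median tested gene had 11.5 CPM. These are counts of 3′ ends, so they were not divided by transcript length. Only 17 of the 71 genes had a mean above 1 CPM. Of the 20 tested genes, 1 was for H1, 9 for H2A, 5 for H2B, 2 for H3 and 3 for H4. By cluster, 12 of 55 genes of HIST1 on chromosome 6 were tested, against 7 of 12 genes of HIST2 on chromosome 1. Of the tested genes with a stem-loop, 10 of 13 had more than 100 annotated bases after it (median 1128 bases), against 12 of 17 counted genes that were not tested (median 732 bases).

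**Figure D1:**
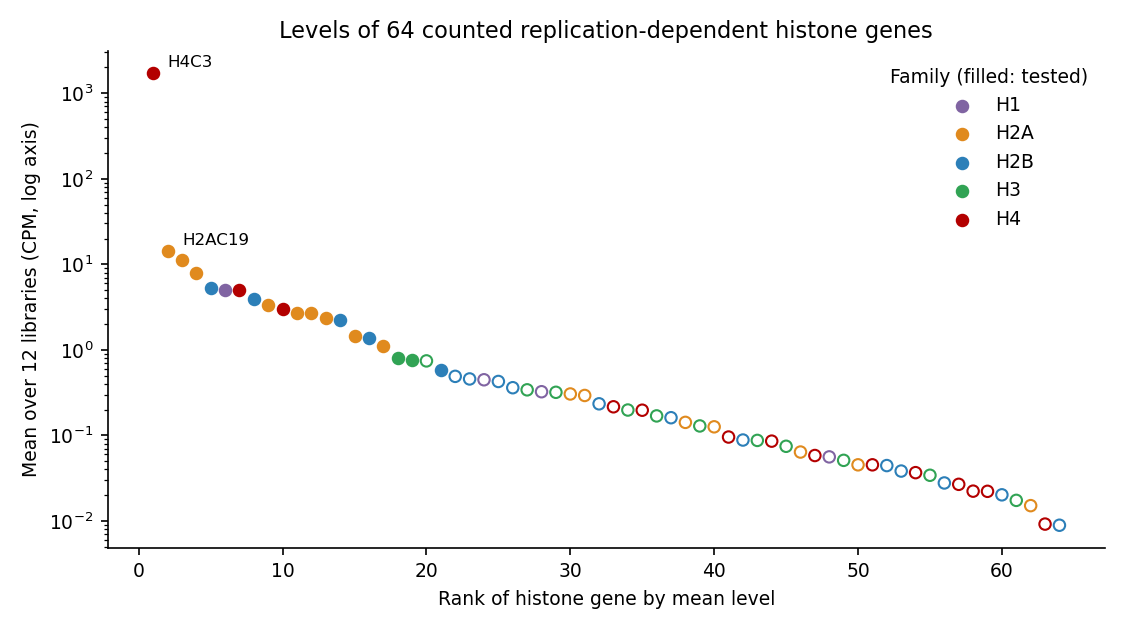
Mean level of each of the 64 counted histone genes over the 12 libraries, in CPM on a log axis, ordered by rank and coloured by family; filled points mark the 20 tested genes. H4C3 lies at 1707 CPM and the next gene, H2AC19, at 14.4 CPM.

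Some genes cannot be told apart by sequence. All 50-base stretches of the H2AC18 transcript are also in H2AC19, 97.5% of those of H4C14 are also in H4C15, and 83.7% of those of H2AC14 are also in H2AC13. H2AC17 overlaps H3C12 on the same strand and shares 86.3% of its stretches with it. All stretches of H3C4 are also in the gene AL031777.3. How the counting treated such reads is not given in the sources used here, so values within these pairs are uncertain.

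Human counts per library were 5048321 to 12743576, and AZ5576 replicate 2 was the shallowest. All 8 myeloid markers were detected, with sums of 963 to 1046 CPM in AZ5576, 1056 to 1113 CPM in THZ531, 873 to 949 CPM in YKL5124 and 761 to 805 CPM in DMSO. Among 14 markers of other cell types, CD2, CD3E, HBB, COL1A2 and DCN were at 0. The 14 summed to 5.35 to 10.4 CPM in AZ5576, 9.24 to 11.7 CPM in THZ531, 8.58 to 9.51 CPM in YKL5124 and 7.86 to 9.52 CPM in DMSO. The ratio of human to fly counts was 7.97 to 9.27 in AZ5576, 8.57 to 9.21 in THZ531, 8.62 to 9.33 in YKL5124 and 8.47 to 10.6 in DMSO.

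Under THZ531, H2BC21, H1-2 and H4C3 were among the histone genes that were higher than in DMSO. H2BC15 and H3C10 were higher too, but passed the count filter only through the THZ531 libraries. The row kept for H2BC15 also depended on those libraries. Of the 20 tested genes, 9 rose under THZ531 (30.4% of all tested genes rose) and 2 fell (32.9% of all fell). Under AZ5576, 1 of 20 rose (18.6% of all) and 4 fell (23.1% of all). Under YKL5124, 1 of 20 rose (7.25% of all) and 1 fell (13.5% of all). The median log2 fold change of the 20 genes was -0.06 under AZ5576, 0.43 under THZ531 and 0.09 under YKL5124, against 0.01, -0.00 and -0.00 over all tested genes. These calls are from edgeR's quasi-likelihood test with adjusted p under 0.05 over all tested genes, and the 3 comparisons share the DMSO libraries. A gene that passed the count filter through the group in which it is high was more likely to be called, so the 20 do not stand for all 71. The counts also take H2AC18 and H2AC19, and H4C14 and H4C15, as separate genes, though each pair shares its sequence. The 2 falls under THZ531 are those of H4C14 and H4C15.

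The THZ531 split depends on scaling. The values above were scaled with TMM, which centres the fold changes of most human genes on 0. With scaling on the fly counts, the median of all genes under THZ531 was -0.37, the median of the 20 histone genes was 0.07, and 4 of them rose and 5 fell, where 7.05% of all genes rose and 46.5% fell. With library size alone the medians were -0.29 and 0.14, and 5 rose and 5 fell, where 13.9% of all genes rose and 45.9% fell. H1-2, H2BC15, H2BC21 and H4C3 rose under THZ531 with all 3 scalings, and H4C14 and H4C15 fell with all 3. For H2BC15 this holds for a row whose choice and filter pass depended on the THZ531 libraries. Under AZ5576, fly scaling gave 0 rises and 5 falls, with the median of all genes at -0.17 and 28.5% of all genes lower. Under YKL5124 it gave 0 rises and 1 fall, with the median of all genes at -0.07 and 12.5% of all genes lower.

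**Figure D2:**
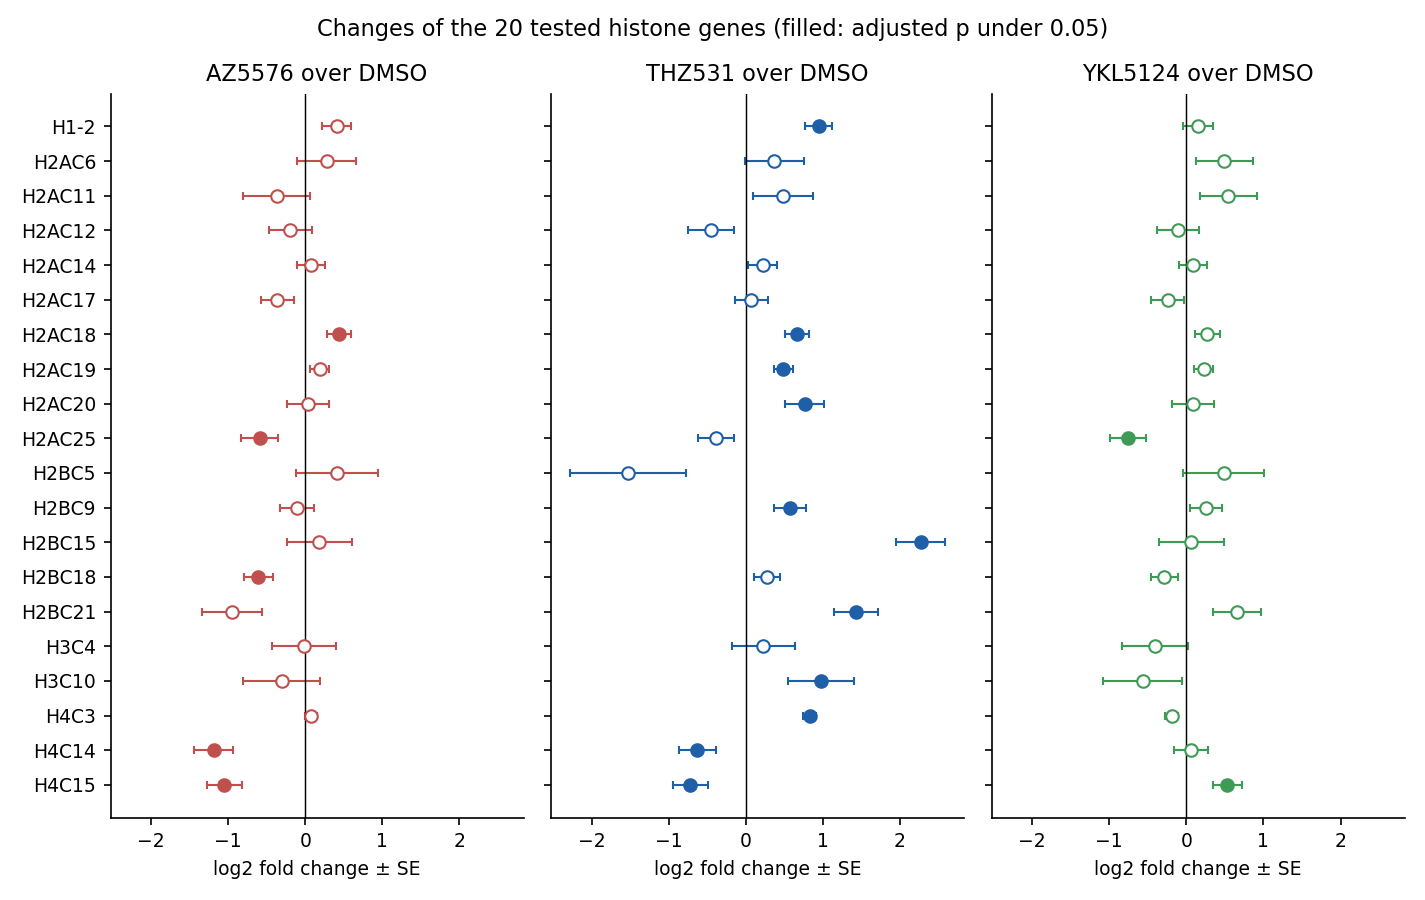
Log2 fold change of each of the 20 tested histone genes over DMSO, with bars of 1 standard error (3 libraries per group); filled points passed the test. Under THZ531, 9 genes lie filled to the right of 0, led by H2BC15 at 2.27, whereas H4C14 and H4C15 lie to its left under AZ5576 and THZ531.

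H1 binds the linker DNA between nucleosomes. H1-2 (HIST1H1C, chr6:26055787-26056428, minus strand) was the only tested gene of this family. H1-2 had 5.75, 4.75 and 4.42 CPM in AZ5576, 5.99, 7.28 and 8.45 CPM in THZ531, 4.61, 4.01 and 4.08 CPM in YKL5124 and 4.00, 3.43 and 3.85 CPM in DMSO. All 3 THZ531 libraries lay above the 3 DMSO libraries. H1-2 rose under THZ531 (log2 fold change 0.95, SE 0.18, adjusted p = 3.22e-05), but not under AZ5576 (0.41, SE 0.19, adjusted p = 0.0783) or YKL5124 (0.15, SE 0.19, adjusted p = 0.635). The rise under THZ531 passed the test in all 23 alternatives, with values of 0.58 to 1.03. The 3 other counted H1 genes, H1-3, H1-4 and H1-5, had 7, 40 and 56 counts over the 12 libraries and were not tested.

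H2A pairs with H2B in the nucleosome core. Under THZ531, H2AC18, H2AC19 and H2AC20 of the HIST2 cluster rose, and none of the 9 tested H2A genes fell. H2AC18 and H2AC19 share their sequence, so they count as 1 observation. H2AC18 had 9.11, 7.33 and 8.35 CPM in AZ5576, 9.51, 9.59 and 10.4 CPM in THZ531, 7.64, 6.80 and 8.08 CPM in YKL5124 and 7.63, 5.52 and 5.35 CPM in DMSO. Its THZ531 libraries all lay above its DMSO libraries, while AZ5576 replicate 2 and DMSO replicate 1 overlapped. H2AC18 rose under AZ5576 (0.44, SE 0.16, adjusted p = 0.0237) and under THZ531 (0.66, SE 0.15, adjusted p = 0.000444). The AZ5576 call was kept in 15 of 23 alternatives and lost without AZ5576 replicate 1 or 3 or DMSO replicate 2 or 3 (0.34 to 0.45). It was also lost with DESeq2, fly scaling, library size alone and rows summed (0.27 to 0.45). The THZ531 call was lost with fly scaling (0.31, adjusted p = 0.152).

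H2AC19 had 14.5, 12.1 and 14.5 CPM in AZ5576, 18.1, 19.3 and 14.4 CPM in THZ531, 12.5, 14 and 16.3 CPM in YKL5124 and 12.5, 12.1 and 12.3 CPM in DMSO. The THZ531 libraries lay above the DMSO libraries. H2AC19 rose under THZ531 (0.49, SE 0.13, adjusted p = 0.00118), a call lost with fly scaling (0.12) and with library size alone (0.20). H2AC20 had 2.56, 1.58 and 2.42 CPM in AZ5576, 3.65, 5.29 and 2.57 CPM in THZ531, 2.91, 2.33 and 2.08 CPM in YKL5124 and 2.45, 1.90 and 2.36 CPM in DMSO. Its rise under THZ531 (0.76, SE 0.26, adjusted p = 0.0106) leaned on THZ531 replicate 2, without which the value was 0.42 (adjusted p = 0.217). The call was also lost with fly scaling (0.40) and with library size alone (0.47).

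H2AC25, of the small HIST3 cluster, went the other way. It had 2.16, 2.97 and 2.25 CPM in AZ5576, 2.21, 2.65 and 3.21 CPM in THZ531, 2.18, 1.58 and 2.50 CPM in YKL5124 and 4.08, 3.05 and 3.46 CPM in DMSO. All AZ5576 and YKL5124 libraries lay below the DMSO libraries. H2AC25 fell under AZ5576 (-0.59, SE 0.24, adjusted p = 0.0442) and under YKL5124 (-0.76, SE 0.24, adjusted p = 0.0209), and its value under THZ531 was -0.39 (SE 0.23, adjusted p = 0.15), which passed with fly scaling (-0.75). The AZ5576 call was kept in 13 of 22 alternatives and lost without AZ5576 replicate 1 or 3, DMSO replicate 1 or 3 or THZ531 replicate 2 (-0.61 to -0.47). It was also lost with DESeq2, rows summed, rows tested singly and no count filter (-0.62 to -0.57). The YKL5124 call was kept in 18 of 22 and lost without DMSO replicate 1 (-0.64) or YKL5124 replicate 2 (-0.59). DESeq2 (-0.73) and summing rows (-0.76) also removed it. H2AC14 is among the most abundant of the histone genes but was called in no comparison with DMSO. H2AC14 had 9.27, 6.74 and 15.2 CPM in AZ5576, 12, 13.6 and 11 CPM in THZ531, 12.2, 8.29 and 12.9 CPM in YKL5124 and 10.9, 11.4 and 9.20 CPM in DMSO. The AZ5576 libraries of H2AC14 spread widely around the DMSO libraries. The 4 other tested H2A genes, H2AC6, H2AC11, H2AC12 and H2AC17, were not called, with log2 fold changes of -0.45 to 0.55 over the 3 comparisons.

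H2B genes gave the largest rises under THZ531. H2BC15 (HIST1H2BN) had 0.639, 0.594 and 1.00 CPM in AZ5576, 3.26, 3.53 and 3.21 CPM in THZ531, 1.09, 0.559 and 0.583 CPM in YKL5124 and 0.667, 0.761 and 0.629 CPM in DMSO. The THZ531 libraries stood clear of the 9 others, with 25, 32 and 30 counts against 9, 8 and 8 in DMSO. H2BC15 rose 4.82-fold under THZ531 (log2 fold change 2.27, SE 0.32, adjusted p = 3.82e-07). It was called in all 22 alternatives, with values of 0.89 to 2.34, the lowest where all rows of the gene were summed. The row kept for H2BC15 and its pass through the count filter both depended on the THZ531 libraries. Calls on that row are therefore favoured by how it was chosen.

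H2BC21 (HIST2H2BE, chr1:149884459-149886652, minus strand), a histone gene known to be expressed outside S phase as well, had 0.399, 0.396 and 1.42 CPM in AZ5576, 3.26, 4.52 and 4.92 CPM in THZ531, 2.91, 2.24 and 2.41 CPM in YKL5124 and 1.93, 1.14 and 1.57 CPM in DMSO. Its THZ531 and YKL5124 libraries lay above the DMSO libraries, and AZ5576 replicates 1 and 2 lay below them, with 5 and 2 counts. H2BC21 rose 2.70-fold under THZ531 (1.43, SE 0.29, adjusted p = 7.14e-05), with values of 1.07 to 1.63 in 22 alternatives. Its value under YKL5124 was 0.66 (SE 0.31, adjusted p = 0.134). Under AZ5576 it was -0.95 (SE 0.39, adjusted p = 0.0529), and it passed the test without AZ5576 replicate 3 (-1.95, adjusted p = 0.00285) or DMSO replicate 2 (-1.11), and with fly scaling (-1.11).

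H2BC9 had 2.96, 3.37 and 3.26 CPM in AZ5576, 3.52, 5.73 and 5.78 CPM in THZ531, 4.24, 3.36 and 4.58 CPM in YKL5124 and 3.93, 3.05 and 3.14 CPM in DMSO. THZ531 replicate 1 lay within the range of DMSO and the other two above it. The rise of H2BC9 under THZ531 (0.58, SE 0.21, adjusted p = 0.0168) was kept in 17 of 23 alternatives. It was lost with fly scaling (0.22), with library size alone (0.285) and without THZ531 replicate 2 or 3 or DMSO replicate 2 or 3 (0.44 to 0.52). H2BC18 had 3.59, 3.96 and 3.76 CPM in AZ5576, 7.29, 7.06 and 6.42 CPM in THZ531, 5.94, 3.63 and 4.66 CPM in YKL5124 and 5.71, 6.38 and 5.11 CPM in DMSO. Its AZ5576 libraries lay below all 3 DMSO libraries. H2BC18 fell under AZ5576 (-0.61, SE 0.19, adjusted p = 0.00948) in all 23 alternatives, and its value under THZ531 was 0.28 (SE 0.17, adjusted p = 0.16). H2BC5, the fifth tested H2B gene, was not called against DMSO. Its value under THZ531 was -1.53 (SE 0.75, adjusted p = 0.0773).

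**Figure D3:**
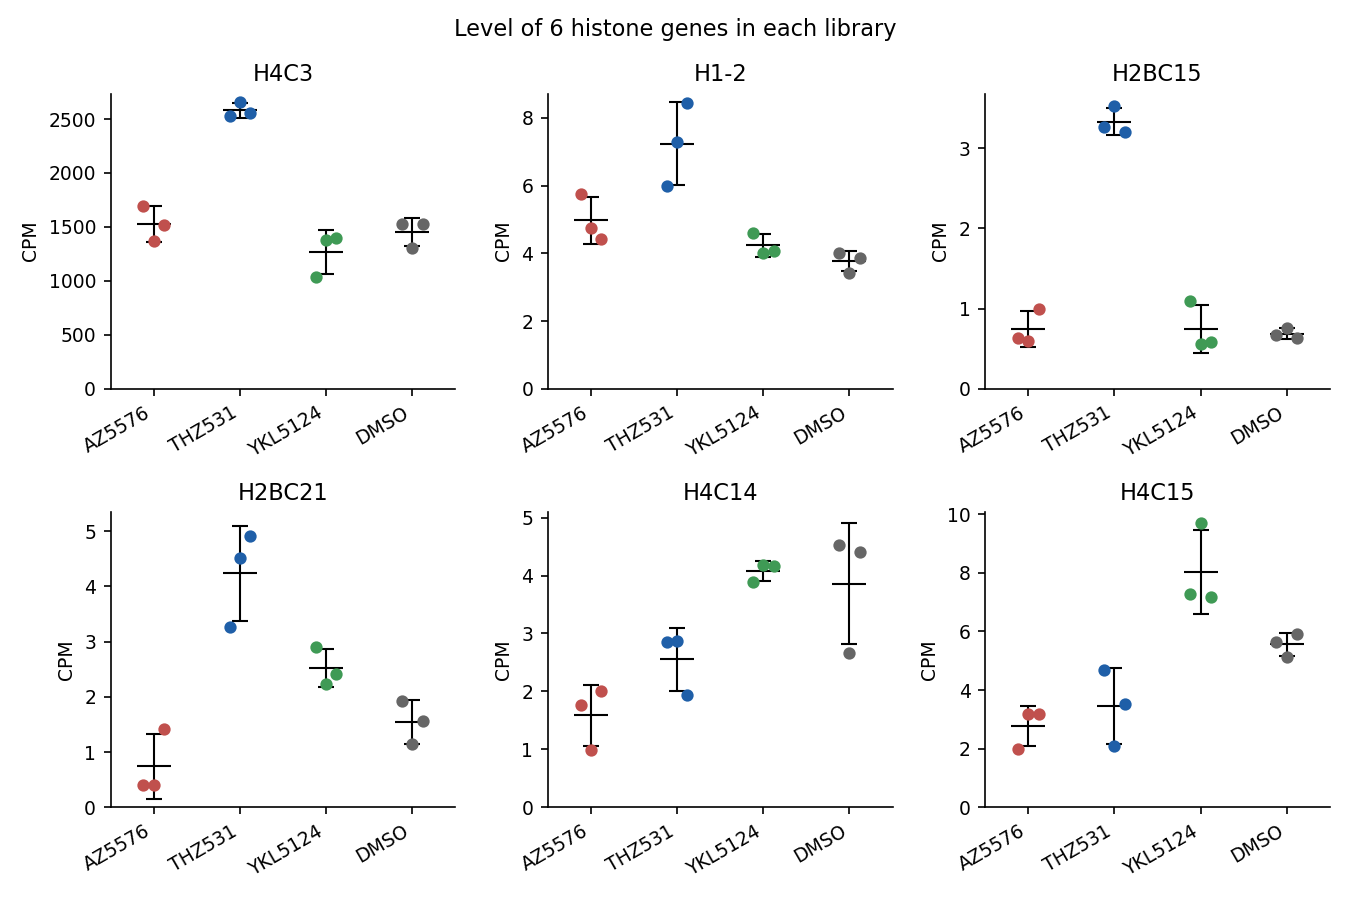
Level of 6 histone genes in CPM in each library, by group, with the mean and SD of 3 libraries in black. The THZ531 libraries of H4C3, H1-2, H2BC15 and H2BC21 lie above all DMSO libraries, and the AZ5576 libraries of H4C14 and H4C15 below them.

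H3 genes were counted at low levels, with 13 of 15 detected and 2 tested. H3C10 had 0.399, 0.792 and 0.584 CPM in AZ5576, 1.69, 1.10 and 1.28 CPM in THZ531, 0.727, 0.186 and 0.50 CPM in YKL5124 and 0.963, 0.381 and 0.629 CPM in DMSO. Its THZ531 libraries lay above its DMSO libraries, on 10 to 13 counts against 4 to 13. H3C10 rose under THZ531 (0.98, SE 0.42, adjusted p = 0.0449), but the call was kept in only 8 of 22 alternatives. It was lost without any 1 of the THZ531 replicates, DMSO replicate 2 or 3, AZ5576 replicate 2 or 3 or YKL5124 replicate 3 (0.74 to 1.08). The call was also lost with DESeq2, fly scaling, library size alone, rows summed, rows tested singly and no count filter (0.62 to 1.02). H3C4 was not called, with values of -0.41 to 0.23. Summed over the family, H3 genes had 3.23 ± 0.58 CPM in AZ5576, 5.87 ± 0.67 CPM in THZ531, 2.82 ± 0.64 CPM in YKL5124 and 2.99 ± 0.45 CPM in DMSO (SD, n = 3 each).

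Under THZ531, H4C3 moved up while H4C14 and H4C15, each counted in a distant exon, moved down. Other ends of H4C14 and H4C15, given below, did not all share the fall. H4C3 had 1698, 1365 and 1522 CPM in AZ5576, 2527, 2656 and 2556 CPM in THZ531, 1036, 1381 and 1394 CPM in YKL5124 and 1529, 1302 and 1524 CPM in DMSO. The THZ531 libraries stood above all others, and the AZ5576 and YKL5124 libraries overlapped with DMSO. H4C3 rose 1.78-fold under THZ531 (0.83, SE 0.08, adjusted p = 6.26e-10), with values of 0.46 to 0.87 in 23 alternatives, the lowest with fly scaling. Its value was 0.08 under AZ5576 (SE 0.08, adjusted p = 0.496; -0.12 with fly scaling) and -0.19 under YKL5124 (SE 0.08, adjusted p = 0.102). The YKL5124 value passed the test in 3 of 23 alternatives, without DMSO replicate 2 (-0.27), without YKL5124 replicate 3 (-0.27) and with no count filter (-0.22).

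H4C14 had 1.76, 0.991 and 2.00 CPM in AZ5576, 2.86, 2.87 and 1.93 CPM in THZ531, 3.88, 4.19 and 4.16 CPM in YKL5124 and 4.52, 2.66 and 4.40 CPM in DMSO. H4C15 had 2.00, 3.17 and 3.17 CPM in AZ5576, 4.69, 2.10 and 3.53 CPM in THZ531, 7.27, 9.69 and 7.16 CPM in YKL5124 and 5.63, 5.14 and 5.90 CPM in DMSO. On average both were lowest under AZ5576, clear of DMSO, and the pair shares its sequence and so counts as 1 observation. H4C14 fell under AZ5576 (log2 fold change -1.19, SE 0.26, adjusted p = 0.000449), and so did H4C15 (-1.05, SE 0.23, adjusted p = 0.000514), both in all 23 alternatives. Smaller falls were called under THZ531, of -0.63 for H4C14 (SE 0.24, adjusted p = 0.0263) and -0.72 for H4C15 (SE 0.23, adjusted p = 0.00654). The call for H4C14 was lost without THZ531 replicate 3 or DMSO replicate 1 or 3 (-0.53 to -0.48). It was also lost with DESeq2 (-0.61, adjusted p = 0.0727) and with all rows of the gene summed (0.003, adjusted p = 0.992). The call for H4C15 was lost without THZ531 replicate 2 (-0.48) and with all its rows summed (-0.31, adjusted p = 0.255). Under YKL5124, H4C15 rose (0.53, SE 0.19, adjusted p = 0.0394), a call kept in 15 of 23 alternatives and lost without any 1 of the DMSO replicates or YKL5124 replicate 2 (0.37 to 0.57). That call was also lost with DESeq2, fly scaling, rows summed and rows tested singly (0.41 to 0.56). H4C14 had a value of 0.06 under YKL5124 (SE 0.22).

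The untested genes were also described as a sum. The 51 genes below the count filter together had 7.43, 3.76 and 7.26 CPM in AZ5576, 10.8, 7.39 and 11.1 CPM in THZ531, 6.79, 5.13 and 5.66 CPM in YKL5124 and 6.45, 6.76 and 7.31 CPM in DMSO. With TMM scaling, THZ531 libraries lay above DMSO by this sum, replicate 2 by little. Scaled on library size or fly counts, THZ531 replicate 2 lay below every DMSO library. Without H4C3, all histone genes together had 70.4 ± 9.04 CPM in AZ5576, 99.5 ± 1.97 CPM in THZ531, 82.4 ± 6.12 CPM in YKL5124 and 76.6 ± 3.97 CPM in DMSO (SD, n = 3 each). These sums use TMM, whose factors were 0.87 to 0.89 in THZ531 and 1.07 to 1.08 in DMSO. Scaled on library size or fly counts, the THZ531 and DMSO libraries overlapped by the sum without H4C3.

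Several histone genes have a transcript that ends near the stop codon and another that is spliced to a distant exon, and the count table holds these ends as separate rows. In H2BC15 the counts next to the stop codon (chr6:27839043-27839482), which hold the stem-loop shown above, came to 157 over the 12 libraries, and those in the distant exon (chr6:27852135-27855709) to 156. The end nearer the stop codon was thus the one chosen for the gene by a single count, and this choice rested on the THZ531 libraries. In each library of the other groups the distant exon had as many counts or more. Next to the stop codon the 12 libraries had the values given above for the gene. In the distant exon they had 16, 3 and 14 counts in AZ5576, 8, 4 and 4 in THZ531, 17, 28 and 23 in YKL5124 and 10, 13 and 16 in DMSO. When every row of the table was tested on its own, the near end rose under THZ531 (2.22, SE 0.33, adjusted p = 6.7e-07), where 26.1% of all rows rose. The distant end had a value of -0.83 under THZ531 (SE 0.45, adjusted p = 0.119) and rose under YKL5124 (1.03, SE 0.34, adjusted p = 0.0382), where 3.99% of all rows rose. Set against YKL5124, THZ531 was higher at the near end (2.16, SE 0.34) and lower at the distant end (-1.86, SE 0.40, adjusted p = 0.000216). Among all rows, 26.1% were higher and 24.5% lower in that comparison. The difference between the ends was not itself tested.

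In H4C14 and H4C15, the row with the most counts was a distant exon, beginning 1088 bases past the stem-loop. These rows (chr1:149834135-149834631 and chr1:149859185-149859681) are the ones whose falls under AZ5576 are given above, and 16.8% of all rows fell there. The row of H4C15 next to the stop codon (chr1:149859952-149860819), which holds the stem-loop, had 8, 3 and 15 counts in AZ5576, 8, 8 and 10 in THZ531, 5, 13 and 7 in YKL5124 and 12, 7 and 11 in DMSO. It was not called, with a value of 0.09 under AZ5576 (SE 0.43, adjusted p = 0.903). The row of H4C14 next to the stop codon (chr1:149832997-149833864) had 5, 1 and 3 counts in AZ5576, 8, 8 and 4 in THZ531, 7, 6 and 13 in YKL5124 and 8, 8 and 5 in DMSO. At these few counts, the H4C14 row was lower on average in AZ5576 than in DMSO. In H4C14, a shorter row that starts at the same base as the distant exon (chr1:149834135-149834484) had 11, 2 and 7 counts in AZ5576, 14, 20 and 9 in THZ531, 11, 13 and 9 in YKL5124 and 8, 5 and 6 in DMSO. It rose under THZ531 (1.60, SE 0.43, adjusted p = 0.00183), while the full exon fell (-0.68, SE 0.25, adjusted p = 0.0217; 26.8% of all rows fell). The shorter row lies within the full exon, so the same reads can be counted in both rows. With all rows of H4C14 summed, overlapping rows included, the THZ531 value was 0.00. In H2AC6 the distant exon (chr6:26138054-26139084) held 176 counts and the row with the stem-loop 7.

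**Figure D4:**
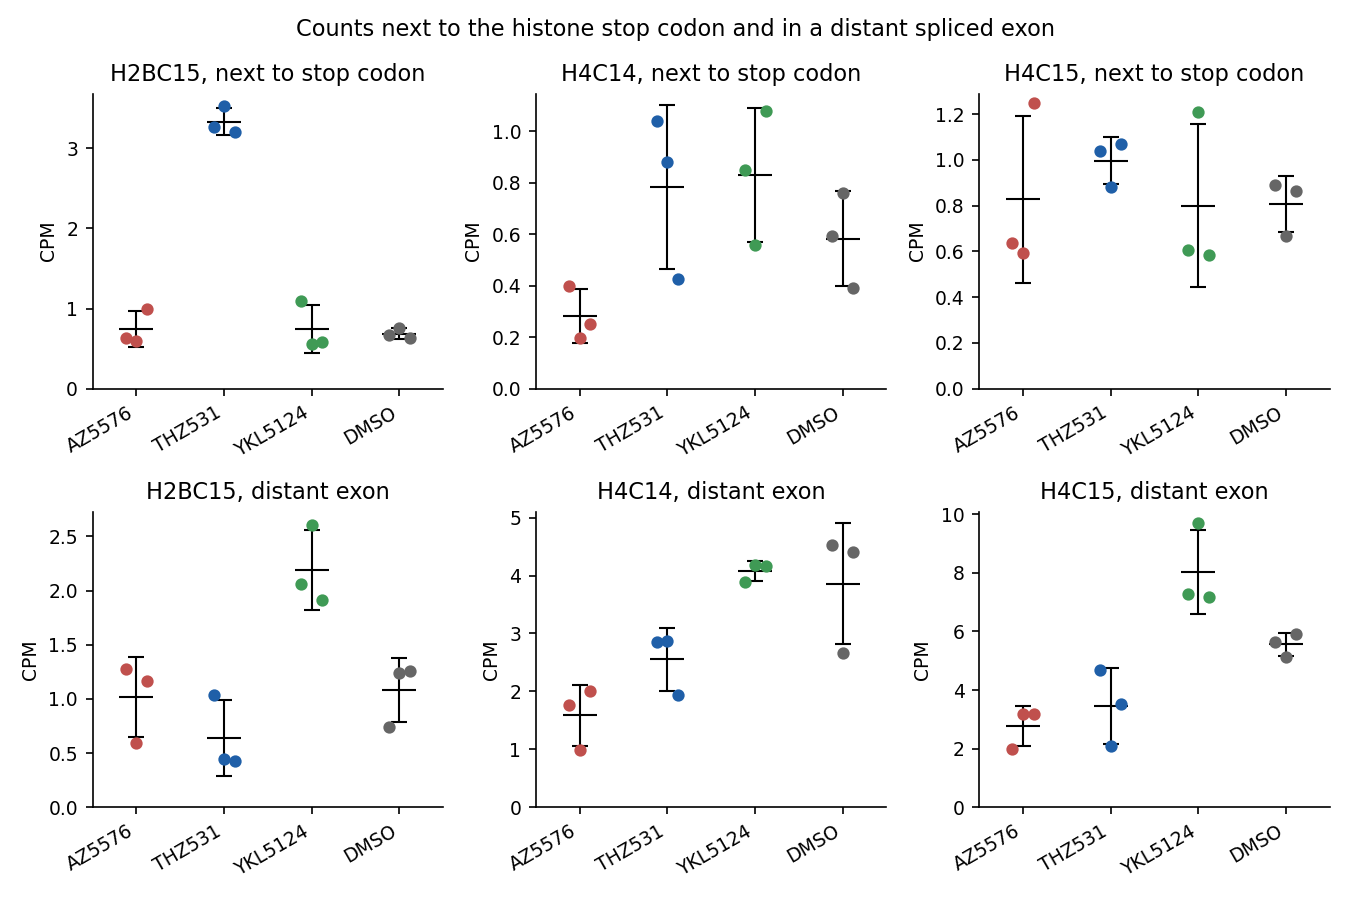
CPM in each library for the row next to the histone stop codon (top) and the distant spliced exon with the most counts (bottom) of H2BC15, H4C14 and H4C15, with mean and SD of 3 libraries in black. The THZ531 libraries of H2BC15 stand above DMSO at the near end and not in the distant exon; H4C14 and H4C15 under AZ5576 lie below DMSO in the distant exon.

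Comparing the inhibitors with each other does not use the DMSO levels. H2BC15 and H3C10 passed the count filter only through the THZ531 libraries, and H2BC5 only through the YKL5124 libraries. H3C4, called in no comparison, passed only through AZ5576 and THZ531 libraries together. The row kept for H2BC15 also depended on the THZ531 libraries. Each of these genes was thus more likely to be called where the group it passed through was compared. The counts below include these genes. In AZ5576 against THZ531, 9 of 20 histone genes were lower (27.1% of all tested genes) and 1 was higher (27.8% of all). With fly scaling 4 were lower and 1 was higher, where 14.5% of all genes were lower and 34.2% higher. H2BC21 had the largest difference (-2.38, SE 0.34, adjusted p = 7.29e-07), followed by H2BC15 (-2.09, SE 0.33, adjusted p = 3.11e-06), and H4C3 was 1.69-fold lower in AZ5576 (adjusted p = 4.95e-09). The gene higher in AZ5576 was H2BC5 (1.94, SE 0.73, adjusted p = 0.0255), counted in its distant exon with 15, 2 and 6 counts in AZ5576 and 1, 1 and 3 in THZ531. Its row next to the stop codon had 11, 5 and 10 counts in AZ5576 and 9, 4 and 8 in THZ531, and the call was lost with rows summed, with DESeq2 and without AZ5576 replicate 1 or THZ531 replicate 1 or 2. In AZ5576 against YKL5124, 3 were lower (9.6% of all) and 1 was higher (6.23% of all). The lower genes were H4C15 (-1.58, SE 0.22, adjusted p = 5.69e-06), H4C14 (-1.25, SE 0.26, adjusted p = 0.00118) and H2BC21 (-1.61, SE 0.37, adjusted p = 0.00298), and H4C3 was higher (0.27, SE 0.08, adjusted p = 0.0259). In THZ531 against YKL5124, 8 were higher (30.5% of all) and 3 lower (30.5% of all). These counts were 3 higher and 3 lower without YKL5124 replicate 2, and 5 higher and 2 lower without THZ531 replicate 2. With fly scaling they were 4 higher and 3 lower, where 10.6% of all genes were higher and 41.8% lower. H4C3 was 2.03-fold higher in THZ531 (adjusted p = 8.62e-12), and H4C15 was lower (-1.25, SE 0.22, adjusted p = 1.1e-05).

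Genes for histone variants outside the replication-dependent clusters, most of which are known to give ordinary polyadenylated mRNAs, were measured as a set of 12. The set includes H2AX, which holds the stem-loop. Under THZ531 7 rose and 1 fell, where 30.4% of all tested genes rose and 32.9% fell. Under AZ5576 3 rose and 4 fell (18.6% and 23.1% of all), and under YKL5124 2 rose and 4 fell (7.25% and 13.5% of all). Their median log2 fold changes were 0.19, -0.00 and -0.07 in that order. With fly scaling 2 rose and 4 fell under THZ531, where 7.05% of all genes rose and 46.5% fell. H2AZ2, an H2A.Z gene, rose under THZ531 (1.01, SE 0.07, adjusted p = 1.09e-13), as did H3-3A, a gene for the variant H3.3 (0.63, SE 0.06, adjusted p = 8.28e-11). H2AZ1 and H3-3B, the partner genes of these, rose there by 0.41 (SE 0.05) and 0.40 (SE 0.05), but by 0.04 and 0.03 with fly scaling, where neither passed the test. In AZ5576 and YKL5124, H2AZ1 and H3-3B were not called, though H3-3B under AZ5576 was with fly scaling (-0.32, adjusted p = 0.0233). CENPA, the centromeric H3 variant, fell under AZ5576 (-1.12, SE 0.16, adjusted p = 1.12e-06), THZ531 (-1.19, SE 0.16) and YKL5124 (-1.03, SE 0.15, adjusted p = 6.84e-06). H1-10 fell under AZ5576 (-0.49, SE 0.07, adjusted p = 5.65e-07) and YKL5124 (-0.44, SE 0.07, adjusted p = 7.7e-06).

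Genes for the factors that transcribe, process and degrade histone mRNA were measured as a set of 20. Under AZ5576 1 rose and 5 fell, where 18.6% of all tested genes rose and 23.1% fell. Under THZ531 5 rose and 11 fell (30.4% and 32.9% of all), and under YKL5124 0 rose and 4 fell (7.25% and 13.5% of all). The medians were -0.05, -0.24 and -0.06. With fly scaling 0 rose and 7 fell under AZ5576 (3.27% and 28.5% of all). On that scaling 1 rose and 13 fell under THZ531 (7.05% and 46.5% of all), with a median of -0.61, and 0 rose and 4 fell under YKL5124 (3.35% and 12.5% of all). NPAT, the coactivator of histone gene transcription in S phase, had 3.20, 3.76 and 3.51 CPM in AZ5576, 2.21, 2.21 and 2.78 CPM in THZ531, 6.30, 7.55 and 8.08 CPM in YKL5124 and 14.7, 12.8 and 16.9 CPM in DMSO. All 9 inhibitor libraries lay below the DMSO libraries. NPAT fell under AZ5576 (-2.11, SE 0.16, adjusted p = 7.86e-12), THZ531 (-2.62, SE 0.18, adjusted p = 1.24e-13) and YKL5124 (-1.01, SE 0.14, adjusted p = 1.87e-06).

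SLBP, the stem-loop binding protein, had 54.7, 64.6 and 59.2 CPM in AZ5576, 83.1, 78.9 and 77.1 CPM in THZ531, 48.1, 44.8 and 44.6 CPM in YKL5124 and 63.9, 70.9 and 68.4 CPM in DMSO. It fell under AZ5576 (-0.20, SE 0.07, adjusted p = 0.0315) and YKL5124 (-0.56, SE 0.07, adjusted p = 1.16e-06). It rose under THZ531 (0.23, SE 0.07, adjusted p = 0.00601), but with fly scaling its value there was -0.13 (adjusted p = 0.376). ZNF473, a component of the U7 machinery, fell under AZ5576 (-1.45, SE 0.11, adjusted p = 1.33e-11), THZ531 (-0.74, SE 0.11, adjusted p = 6.07e-07) and YKL5124 (-0.83, SE 0.10, adjusted p = 4.72e-07). SRRT, which works with the cap-binding complex, rose under THZ531 (0.85, SE 0.07, adjusted p = 2.52e-11). The part of NPAT, SLBP and ZNF473 in the levels of histone genes was not tested.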

How the data were processed

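Human THP-1 cells treated with AZ5576, THZ531, YKL5124 or DMSO were profiled with a kit that reads poly(A) 3′ ends, per the labels' protocols. The authors deposited raw read counts in rows named by human or fly transcript, and the total counts are used here. Per the submitters' processing notes, the builds were hg38 and dm6, and the tools include edgeR 3.32.1, Trim Galore 0.6.5 and bcl2fastq 2.17.1.14. Which aligner, counter and strand setting made the counts is not given in the sources used here. Some marker genes are not reported here. Unnamed rows (0.635% to 0.699% of human counts) were left out.

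For each gene the row with the highest total was kept, so a gene is 1 of its ends. Rows of a gene can overlap, and sums of rows add them all, so some reads can count more than once. Rows were read as pieces of the 3′ UTR in GENCODE v29, from their numbers: 99.27% of 52404 transcripts with a 1-piece UTR have 1 row, and 94.59% of 17452 coding transcripts with several rows have as many rows as pieces. Rows of transcripts with no annotated 3′ UTR could not be placed. The 12 libraries were fitted with edgeR 4.0.16 in R 4.3.3 (quasi-likelihood, TMM, filterByExpr with a minimum count of 10, Benjamini-Hochberg over 15831 genes, threshold 0.05); the SE is the absolute log2 fold change divided by the square root of F. CPM uses TMM-scaled library sizes. The scripts were tested on simulated data. The members, gene lists and tests were chosen with earlier results of these data known. Histone genes called against DMSO and the 5 most abundant are given by library. From the lists, SLBP, NPAT, H3-3B, H2AZ1 and the 2 genes with the smallest adjusted p per list and comparison are named. H2BC5, H2BC8 and the ends of single genes were chosen after their values were seen. The columns named UT were taken as the DMSO libraries, since the other 9 columns match the other groups' labels. Alternatives were DESeq2 1.42.0, other scalings and filters, rows summed or tested singly, 6-library fits and each library left out; the fits on protein-coding genes alone and with a replicate block that includes DMSO were chosen after seeing the data.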

Additional observations from a re-analysis of the deposited data

How the results depend on the processing

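The numbers of called histone genes were 5 for AZ5576, 11 for THZ531 and 2 for YKL5124 against DMSO, 10 for AZ5576 against THZ531 and 11 for THZ531 against YKL5124. They moved by over 1.5 times as follows. DESeq2 gave 3 for AZ5576 and 0 for YKL5124 (2 at an unadjusted p under 0.05). Summing rows gave 3 for AZ5576, 0 for YKL5124 (1 at an unadjusted p under 0.05) and 5 for THZ531 against YKL5124. Testing every row gave 1 for YKL5124. Fly scaling gave 1 for YKL5124, 5 for AZ5576 against THZ531 and 7 for THZ531 against YKL5124, where library size alone also gave 7. The strict filter, which tests fewer genes, gave 7 for THZ531, 1 for YKL5124, 4 for AZ5576 against THZ531 and 6 for THZ531 against YKL5124. Leaving out 1 library gave 3 to 5 for AZ5576 (3 without AZ5576 replicate 1 or DMSO replicate 3), 7 to 12 for THZ531 (7 without THZ531 replicate 2) and 0 to 3 for YKL5124 (0 without DMSO replicate 1 or YKL5124 replicate 2, with 4 and 3 at an unadjusted p under 0.05, and 1 without DMSO replicate 3). It gave 6 to 12 for THZ531 against YKL5124 (7 without THZ531 replicate 2, 6 without YKL5124 replicate 2). H4C14 under THZ531 turned from its fall to 0.003 with rows summed (adjusted p = 0.992). The cause of these moves was not tested. With a library left out, 468 values of named genes stayed on their side of the threshold, 32 lost a call and 4 gained one. Under the other settings 405 stayed, 29 lost and 8 gained a call. With a replicate block among the inhibitor libraries, 9, 4 and 11 genes were called, as without it. A replicate block over all 12 libraries, by the numbers in the column names, gave 6, 11 and 2 against DMSO, and H2BC21 under AZ5576 then passed (-0.98, adjusted p = 0.0481). Same-numbered libraries correlated at -0.102 to 0.072, and not each correlated best with its own number. With 3 libraries per group, these values show no clear pairing by number and cannot exclude a weak one. Genes at a few counts per library limit what can be seen.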

Other observations

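Genes of S phase and the histone chaperones, which hand histones to DNA, were measured beside the histone genes. Of 18 S phase genes, 3 rose and 7 fell under AZ5576, where 18.6% of all tested genes rose and 23.1% fell. Under THZ531 6 rose and 6 fell (30.4% and 32.9% of all), and under YKL5124 0 rose and 11 fell (7.25% and 13.5% of all). The medians against DMSO were -0.05, -0.12 and -0.28. CDC25A, a phosphatase that activates CDKs, fell under AZ5576 (-1.31, SE 0.07, adjusted p = 2.5e-15) and YKL5124 (-1.36, SE 0.07, adjusted p = 2.17e-15). CDC6, which helps load the replicative helicase, fell under AZ5576 (-0.85, SE 0.09, adjusted p = 2.13e-09) and THZ531 (-1.24, SE 0.09, adjusted p = 3.75e-13). CDT1, which acts at the same step, fell under THZ531 (-0.67, SE 0.07, adjusted p = 6.82e-10), and RRM2, a ribonucleotide reductase subunit, fell under YKL5124 (-1.0, SE 0.08, adjusted p = 2.37e-11). With fly scaling, 1 rose and 11 fell under THZ531 (7.05% and 46.5% of all). Their part in the histone values was not tested.

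Of 11 chaperone genes, 4 rose and 3 fell under AZ5576, where 18.6% of all tested genes rose and 23.1% fell. Under THZ531 5 rose and 4 fell (30.4% and 32.9% of all), and under YKL5124 0 rose and 3 fell (7.25% and 13.5% of all). With fly scaling, 0 rose in any of the 3 comparisons, and 4, 6 and 3 fell. Of all genes, 3.27%, 7.05% and 3.35% then rose, and 28.5%, 46.5% and 12.5% fell. CHAF1A, a subunit of the CAF-1 complex that places histones on new DNA, fell under AZ5576 (-0.60, SE 0.09, adjusted p = 5.46e-06), THZ531 (-2.08, SE 0.11, adjusted p = 3.71e-16) and YKL5124 (-0.52, SE 0.09, adjusted p = 7.69e-05). CHAF1B, another subunit, fell under AZ5576 (-0.44, SE 0.10, adjusted p = 0.000543). NASP, which binds H3 and H4, fell under YKL5124 (-0.26, SE 0.06, adjusted p = 0.000874) and rose under THZ531 (0.35, SE 0.06, adjusted p = 3.07e-06), but its value was -0.02 with fly scaling.

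Of the 8 myeloid markers, 4 rose under AZ5576 (18.6% of all tested genes), 6 under THZ531 (30.4%) and 2 under YKL5124 (7.25%). The number that fell was 0 in each, against 23.1%, 32.9% and 13.5% of all. With fly scaling 0 rose in any of the 3 comparisons, and 1 fell, under THZ531. Of all genes, 3.27%, 7.05% and 3.35% then rose, and 28.5%, 46.5% and 12.5% fell.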
